A study of Mus musculus with 15 samples.

Results

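The genes examined were 10 genes of renal phosphate transport and its hormonal control, taken by symbol from a table of 47069 genes. They were the sodium-phosphate cotransporters Slc34a1, Slc34a3, Slc20a1 and Slc20a2, the phosphate exporter Xpr1, the receptors Pth1r, Kl and Fgfr1, and the scaffold proteins Slc9a3r1 and Pdzk1. All 10 were found, and their values were read in 15 RNA-Seq libraries. Of these, 12 came from single microdissected proximal tubules labelled PTS2, in 3 sets (m1, m2, m3) of 4 numbered libraries each, and 3 came from whole kidney. All libraries were from male C57BL/6 mice aged 2 months, with no treatment or genotype named, and the labels do not say what the letter m or the library number stands for. Nothing in the labels says which libraries came from separate animals, so p-values measure the spread between these libraries, which may be technical. Values were in TPM (transcript abundance scaled for transcript length and to a common total), which allow levels to be compared between genes but keep no record of sequencing depth. The depth of each library is therefore unknown, and no counting interval is given.

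The proximal tubule recovers most of the phosphate that the glomerulus filters. Sodium-coupled transporters of the SLC34 family in the brush border carry phosphate into the cell, and their number in the membrane is set by parathyroid hormone and by the bone hormone FGF23. Parathyroid hormone acts through PTH1R, FGF23 acts through an FGF receptor joined to the co-receptor Klotho, and both lead to the removal of the transporters, which are held in place by the PDZ proteins NHERF1 (Slc9a3r1) and PDZK1. Whole kidney holds every nephron segment together with vessels, glomeruli and interstitium, and in such bulk samples fewer cells of a type and less RNA per cell cannot be told apart.

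The tubules were first set against marker genes. All 3 distal convoluted tubule markers were lower in each tubule than in each whole kidney library, and their sum was 0.167% of the whole kidney level. The 4 intercalated cell markers were at 0.144%, the 4 podocyte markers at 1.76% and the 5 endothelial markers at 14.2% of the whole kidney sum. Of the 5 macrophage markers, Csf1r was higher, at 186% of whole kidney, and the other 4 were between 8.04% and 15.9%. The thick ascending limb markers summed to 1441 TPM in m3 replicate 3 and to at most 55.8 TPM in the other tubules. The S2 markers, Slc22a6 and Slc22a8, had a summed level of 653 ± 268 TPM (SD, n = 12) in the tubules, against 757 ± 33.9 TPM (SD, n = 3) in whole kidney, but they parted, with Slc22a6 at 120% and Slc22a8 at 25.05% of whole kidney. The 4 markers of the late S3 segment were higher, at 210% of the whole kidney sum, and the early S1 markers Slc5a2 and Slc5a12 were at 0.112% and 0.0864%. The 6 markers of all proximal segments did not move together. Lrp2, Cubn, Aqp1 and Hnf4a were at 97.7%, 97.6%, 99.3% and 89.9% of whole kidney, Miox at 60.2% and Slc27a2 at 198%. The tubules thus carried Slc22a6 and S3 marker RNA, less Slc22a8 RNA than whole kidney and little Slc5a2 or Slc5a12 RNA.

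Within the tubules the members ranged from Slc34a3, at no more than 1.59 TPM, to Slc34a1, at no less than 2336 TPM. In PTS2 the mean levels ran from Slc34a1 through Pdzk1, Pth1r, Slc9a3r1, Kl, Slc20a2, Fgfr1, Slc20a1 and Xpr1 to Slc34a3. The ranges of neighbours in this order did not overlap except between Fgfr1 and Slc20a1 and between Slc20a1 and Xpr1, where the first gene was above the next in 11 of 12 libraries each. In whole kidney the first 5 genes came in the same order, but Slc34a3 stood sixth, and the ranges of Slc9a3r1 and Kl overlapped, as did those of Slc20a1, Xpr1 and Fgfr1. Among all genes ranked by mean TPM, Slc34a1 was number 29 in PTS2 and number 18 in whole kidney. Slc34a3 was number 13413 in PTS2 and number 2260 in whole kidney.

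**Figure D1:**
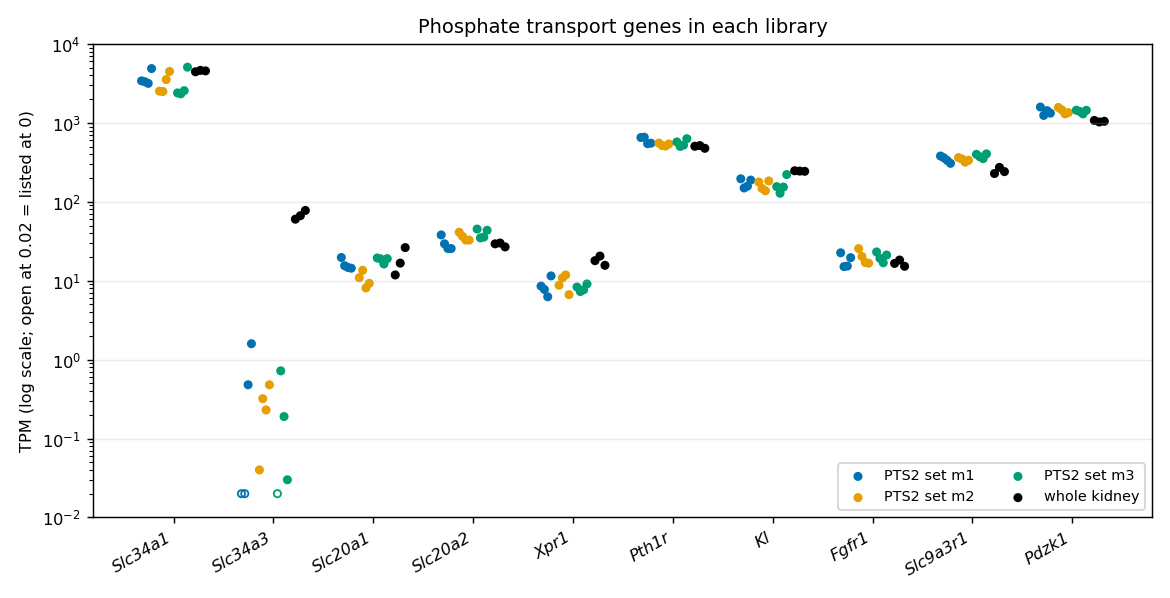
TPM on a log axis of the 10 genes in each library, with 1 point per library, in 3 colours for the PTS2 sets and black for whole kidney. Open points at the bottom are libraries in which the gene is listed at 0. Slc34a3 is the only member whose tubules, at most 1.59 TPM, lie far below whole kidney, at 60.2 to 77.7 TPM.

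Slc34a1, on chromosome 13 (ENSMUSG00000021490, positions 55398187 to 55415592, plus strand), encodes NaPi-IIa, the main phosphate transporter of the brush border. Slc34a3, on chromosome 2 (ENSMUSG00000006469, positions 25228898 to 25234364, minus strand), encodes its relative NaPi-IIc, whose loss in humans causes a hereditary form of rickets. These and the coordinates below are those of the GENCODE M21 annotation of GRCm38. These genes parted in the tubules, and the 250 bases before the start of each, from RefSeq on GRCm38.p6, are shown for that reason. The RefSeq start used for Slc34a1 lies inside the GENCODE span given above, so its window is within the gene, and the Slc34a3 window overlaps the 5′ end of its span. Capitals mark 6-base motifs searched on both strands: GTTAAT, a half-site of the proximal tubule factor HNF1, and AGGTCA, a half-site bound by nuclear receptors.

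Slc34a1, chr13:55399398-55399647, plus strand: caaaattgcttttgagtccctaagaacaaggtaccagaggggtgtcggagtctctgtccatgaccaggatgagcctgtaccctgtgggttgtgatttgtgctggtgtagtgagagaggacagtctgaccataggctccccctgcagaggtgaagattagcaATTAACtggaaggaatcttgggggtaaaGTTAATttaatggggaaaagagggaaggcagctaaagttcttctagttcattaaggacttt
Slc34a3, chr2:25234235-25234484, minus strand: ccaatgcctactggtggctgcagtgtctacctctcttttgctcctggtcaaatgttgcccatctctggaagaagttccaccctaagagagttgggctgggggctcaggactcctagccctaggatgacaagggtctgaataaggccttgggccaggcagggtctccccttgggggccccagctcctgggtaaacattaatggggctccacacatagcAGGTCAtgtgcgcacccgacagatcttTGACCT

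The Slc34a1 window held 2 matches to GTTAAT or its complement and none to AGGTCA, and the Slc34a3 window held 2 matches to AGGTCA or its complement and none to GTTAAT. Over all 32851 windows of this length in the table, 6.43% held GTTAAT and 14.02% held AGGTCA, so neither motif is rare. TATAAA and CACGTG were searched as well, and neither window held them. Of the 10 members, 8 had windows in the table, and GTTAAT was found for Slc34a1 alone among them. AGGTCA was also found in windows of Pdzk1, Slc20a1 and Xpr1, so it does not set Slc34a3 apart. These matches describe the letters and show no binding.

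Slc34a3 RNA was nearly missing from the tubules. It was listed at 0, 0, 0.48 and 1.59 TPM in set m1, at 0.04, 0.32, 0.23 and 0.48 TPM in m2 and at 0, 0.72, 0.19 and 0.03 TPM in m3. In whole kidney it was at 60.2, 66.7 and 77.7 TPM. No tubule came near any whole kidney library, and the mean of 0.34 ± 0.459 TPM (SD, n = 12) was 0.498% of the whole kidney mean of 68.2 ± 8.84 TPM (SD, n = 3). On the log2(TPM + 1) scale, which understates changes of low genes, the difference was -5.74 ± 0.27 (SE, limma adjusted p = 2.9e-11). Slc34a3 entered this test only through its whole kidney level. The S1 markers Slc5a2, the early glucose transporter, and Slc5a12, a lactate transporter, lay at a similar depth, with 0.698 ± 0.463 and 0.103 ± 0.0706 TPM in PTS2, whereas Slc2a2, the glucose exit transporter, was at 41.7% of whole kidney. The part of segment makeup in the Slc34a3 result was not tested.

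Slc34a1 did not follow it. In set m1 it was at 3409, 3325, 3170 and 4881 TPM, in m2 at 2526, 2497, 3539 and 4487 TPM, and in m3 at 2397, 2336, 2561 and 5082 TPM. Whole kidney was at 4444, 4628 and 4559 TPM. Most tubules were lower than whole kidney, but the 3 libraries numbered 4 lay within or above its range, so the groups overlapped. The difference of -0.49 ± 0.25 on the log2 scale did not pass (SE, limma adjusted p = 0.111). Without m3 replicate 4 it passed (-0.56, adjusted p = 0.04), and it passed with quantile normalization (-0.68, adjusted p = 0.0203) and on means over each set (-0.49, adjusted p = 0.00193). It also passed with the library number as a block, described under processing below, and did not pass in the other 21 alternatives. Antisense to Slc34a1 lies Pfn3, which overlaps it by 545 bases and was at 127 TPM in PTS2. No use of strand is stated in the counting, so reads from the overlap cannot be assigned with certainty.

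The SLC20 cotransporters are widely expressed type III transporters, also known as retrovirus receptors. Slc20a2, encoding PiT-2 (chromosome 8, 22476788 to 22569612), ranged from 25.6 through a median of 35.3 to 45.1 TPM in the tubules and was at 29.3, 30.01 and 26.8 TPM in whole kidney. Slc20a1, encoding PiT-1 (chromosome 2, 129198764 to 129211616), ranged from 8.09 through 15.1 to 19.7 TPM in the tubules and was at 11.8, 16.7 and 26.3 TPM in whole kidney. For both genes the groups overlapped and the test did not pass, with log2 differences of 0.26 ± 0.16 for Slc20a2 (SE, limma adjusted p = 0.187) and -0.25 ± 0.26 for Slc20a1 (SE, limma adjusted p = 0.462). Slc20a2 passed as higher with median-of-ratios rescaling (0.54, adjusted p = 0.00214) and with quantile normalization (0.58, adjusted p = 0.000788). Whole kidney replicate 3 weighed on the Slc20a1 value, since without it the sign turned, to 0.038, as it did with median-of-ratios rescaling (0.027) and quantile normalization (0.21).

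Of the summed TPM of the 4 cotransporters, Slc34a1 made up nearly all in both kinds of sample. Its share was 98.4% ± 0.566 (SD, n = 12) in the tubules, against 97.5% ± 0.288 (SD, n = 3) in whole kidney. Slc34a3 held 1.46% ± 0.173 (SD, n = 3) in whole kidney, more than Slc20a2 at 0.617% and Slc20a1 at 0.391%. In PTS2 the order was different, with Slc20a2 at 1.12% ± 0.406, Slc20a1 at 0.478% ± 0.194 and Slc34a3 at 0.0097% ± 0.0113 (SD, n = 12 each). The second most abundant cotransporter RNA was thus Slc34a3 in whole kidney and Slc20a2 in the tubules. These shares do not depend on how the libraries are scaled to each other, and they are given without a test.

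Xpr1 encodes the phosphate exporter of animal cells (ENSMUSG00000026469, chromosome 1, 155275701 to 155417415). Its RNA was lower in the tubules, at 6.26 to 11.8 TPM with a median of 8.43, than in whole kidney, at 17.9, 20.5 and 15.7 TPM. No tubule reached the lowest whole kidney library. The mean was 48.3% of whole kidney, and the difference on the log2 scale was -0.99 ± 0.18 (SE, limma adjusted p = 0.000301). Cells outside the proximal tubule also express Xpr1, and the non-proximal markers listed above, other than Csf1r, were lower in the same comparison. Their part in the Xpr1 result was not tested.

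**Figure D2:**
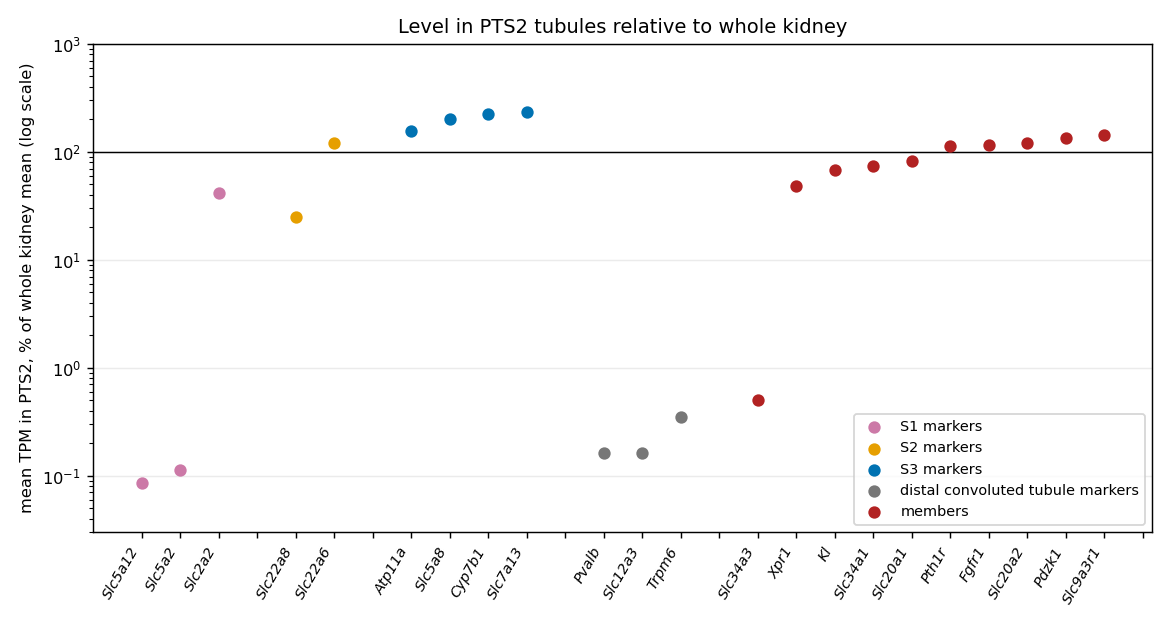
Mean TPM in PTS2 as a percent of the mean in whole kidney, on a log axis, with 1 point per gene for 3 proximal marker lists, distal convoluted tubule markers and the 10 members; the line is at equal levels. Slc34a3, at 0.498%, lies with Slc5a2, Slc5a12 and the distal markers, and the other 9 members lie between 48.3% and 144%.

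Pth1r, the receptor for parathyroid hormone (ENSMUSG00000032492, chromosome 9, 110722085 to 110747145), was abundant in each library. It ranged from 503.7 through a median of 549 to 659 TPM in the tubules and was at 505, 516 and 476 TPM in whole kidney. The groups overlapped, and the log2 difference of 0.17 ± 0.09 did not pass (SE, limma adjusted p = 0.136). With median-of-ratios rescaling it passed, at 0.46 (adjusted p = 0.00072). The gene varied little between tubules, with a coefficient of variation (SD over mean) of 9.77%, against 29.4% for Slc34a1.

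Kl, encoding Klotho (ENSMUSG00000058488, chromosome 5, 150952607 to 150993817), was at 196, 149.7, 158 and 189 TPM in m1, at 178, 148, 138 and 184 TPM in m2 and at 156, 128, 154 and 221 TPM in m3. Whole kidney was at 247, 245 and 243 TPM. Each tubule was below each whole kidney library, and the tubule mean of 166 ± 27.1 TPM (SD, n = 12) was 67.9% of the whole kidney mean. The log2 difference was -0.57 ± 0.14 (SE, limma adjusted p = 0.00405), and with median-of-ratios rescaling the call was lost (-0.28, adjusted p = 0.0827). The distal convoluted tubule is the site best known for Klotho. Its marker Slc12a3, the thiazide-sensitive cotransporter, was at most 0.51 TPM in any tubule and at 179 ± 4.24 TPM (SD, n = 3) in whole kidney. The part of distal cells in the Kl difference was not tested.

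Fgfr1, which can pair with Klotho to bind FGF23 (ENSMUSG00000031565, chromosome 8, 25513654 to 25575718), was at 15.1 to 25.5 TPM in the tubules, with a median of 19.4, and at 16.6, 18.3 and 15.2 TPM in whole kidney. The ranges overlapped, and the log2 difference of 0.19 ± 0.16 did not pass (SE, limma adjusted p = 0.333). It passed at 0.46 (adjusted p = 0.0061) with median-of-ratios rescaling and at 0.64 (adjusted p = 0.000252) with quantile normalization. Per molecule of Fgfr1 RNA there were 8.74 ± 1.56 of Kl RNA (ratio of TPM, SD, n = 12) in the tubules, against 14.8 ± 1.29 (SD, n = 3) in whole kidney. The groups did not overlap, as they did not for Kl alone, and the share of all gene pairs apart in this way was not counted. Among the 4 FGF receptor genes, Fgfr4 held the largest share in both, at 44.7% ± 2.44 of their summed TPM in the tubules, against 33.6% ± 2.44 in whole kidney. Fgfr2 held 17.3% ± 1.01 in whole kidney and 0.739% ± 0.785 in PTS2, and Fgfr1 held 27.1% ± 3.31 in PTS2 and 21.9% ± 1.10 in whole kidney. Fgfr3 held 27.5% ± 2.02 in PTS2 and 27.2% ± 2.28 in whole kidney. These are parts of the same sum, so a smaller Fgfr2 share by itself raises the shares of the other receptors.

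Both scaffold genes were higher in the tubules. Slc9a3r1, encoding NHERF1 (ENSMUSG00000020733, chromosome 11, 115163341 to 115181181), ranged from 307 through a median of 357 to 405 TPM in PTS2 and was at 228, 273 and 241 TPM in whole kidney. Pdzk1, whose protein carries several PDZ domains (ENSMUSG00000038298, chromosome 3, 96829284 to 96870926), ranged from 1244 through 1413 to 1589 TPM in PTS2 and was at 1074, 1027 and 1048 TPM in whole kidney. Each tubule was above each whole kidney library for both genes. The log2 differences were 0.52 ± 0.09 for Slc9a3r1 (SE, limma adjusted p = 0.000133) and 0.42 ± 0.08 for Pdzk1 (SE, limma adjusted p = 0.000413), and both stayed higher at an adjusted p under 0.05 in all 25 alternatives. Relative to the transporter they hold, there were 0.453 ± 0.132 Pdzk1 RNAs per Slc34a1 RNA (ratio of TPM, SD, n = 12) in the tubules, against 0.231 ± 0.00997 (SD, n = 3) in whole kidney. These ratios did not overlap, but neither did Pdzk1 alone, and the share of all gene pairs apart in this way was not counted. The ratio of Slc9a3r1 to Slc34a1 did not overlap either. That of Pth1r to Slc34a1 did, at 0.113 to 0.239 in the tubules and 0.104 to 0.114 in whole kidney. The gene Gpr89 lies antisense over 2646 bases of Pdzk1 and was at 27.7 TPM in the tubules, against 34.8 TPM in whole kidney.

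Of the 10 members, 5 thus passed between PTS2 and whole kidney, where 46.9% of all 12039 genes tested passed, so the count is close to the background. Slc34a3, counted among the 5, entered the test only through its whole kidney level. Among the members, 2 were higher and 3 lower, against 8.69% and 38.2% of all genes. The libraries of these 5 did not overlap between PTS2 and whole kidney, and those of each other member did. Over all genes tested, libraries did not overlap for 5.76% higher and 32% lower in PTS2. These were 693 and 3857 genes, against 1046 and 4599 called, so such separation was also frequent outside the members. The median log2 difference was -0.039 over the members and -0.27 over all genes tested. This background depended on scaling. Of the calls over all genes, 18.5% were higher in PTS2 as deposited, 49.8% with median-of-ratios rescaling (median -0.0030) and 64.3% with quantile normalization (median 0.16). Slc34a3 and Xpr1 were lower, and Slc9a3r1 and Pdzk1 higher, at an adjusted p under 0.05 under each scaling.

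**Figure D3:**
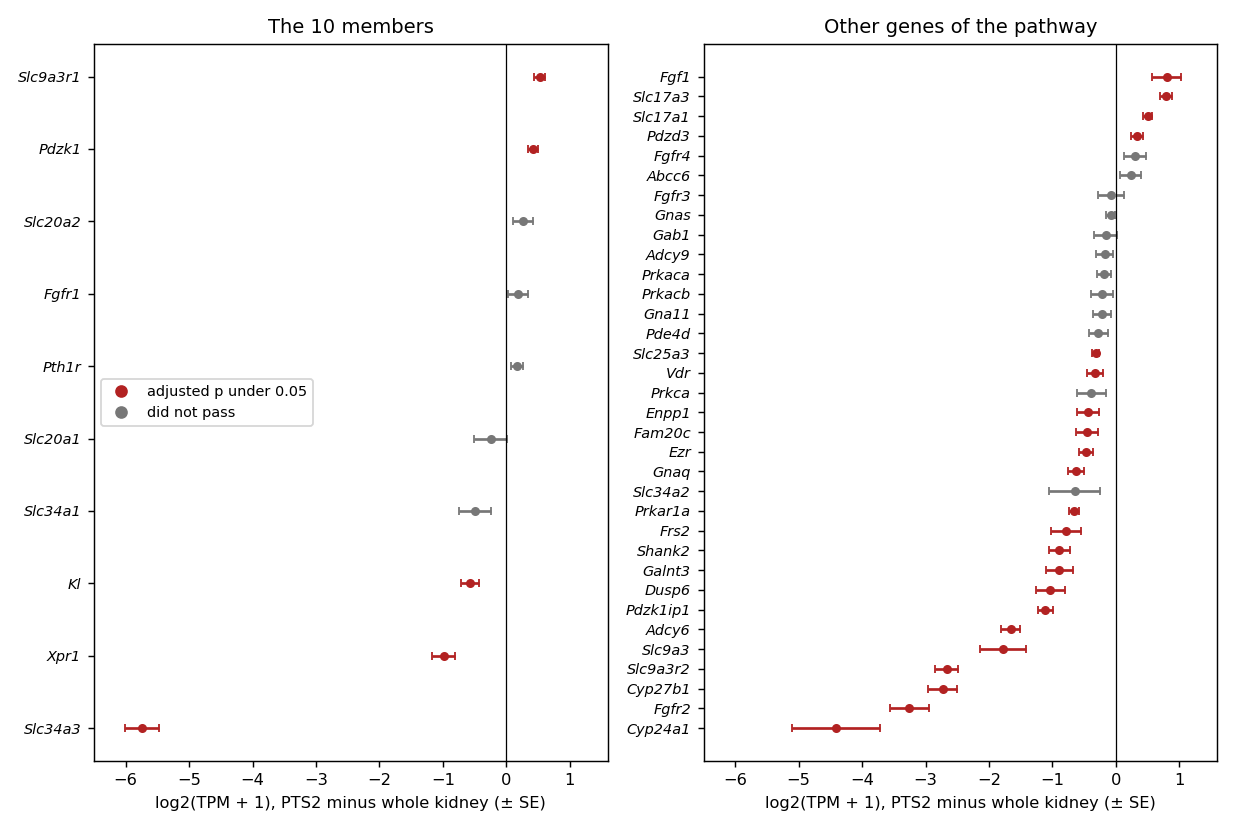
Difference between PTS2 and whole kidney in log2(TPM + 1) for the 10 members (left) and the 34 other pathway genes tested (right), with bars of 1 standard error; red points passed at an adjusted p under 0.05. Slc34a3 at -5.74 is the lowest member, and Slc9a3r1 at 0.52 the highest.

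A list of 42 other genes of the pathway was read in the same fit. Of these, 41 were in the table by symbol and 34 were tested, of which 4 were higher and 18 lower in PTS2, where 8.69% and 38.2% of all genes were, with a median log2 difference of -0.41. Fgfr2, Cyp27b1, Shank2 and Adcy6, all among the lower, had a PTS2 mean under 1 TPM and were tested only through their whole kidney level. With median-of-ratios rescaling 7 pathway genes were higher and 12 lower (21.7% and 21.8% of all genes), and with quantile normalization 7 were higher and 14 lower (32.09% and 17.8% of all genes). Among transporters, the SLC17 family members Slc17a1 and Slc17a3, once described as phosphate transporters and now known for organic anions, were higher, at 1403 ± 96.2 and 1249 ± 97.7 TPM in PTS2 (SD, n = 12) against 991 ± 45.03 and 726 ± 95 TPM in whole kidney (SD, n = 3). Slc25a3, the mitochondrial phosphate carrier, was lower, at 790 ± 29.3 against 988 ± 48.5 TPM, but not with median-of-ratios rescaling (log2 difference -0.029, adjusted p = 0.805). Slc34a2, the intestinal and lung relative of Slc34a1, was at 1.16 ± 1.11 and 2.04 ± 0.26 TPM and did not pass (limma adjusted p = 0.194).

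The scaffold relatives did not all move the same way. Pdzd3, a PDZ protein of the same family, was higher, at 155 ± 14.6 TPM against 123 ± 12.6 TPM (log2 difference 0.33 ± 0.09 SE, limma adjusted p = 0.00843), a call that was lost without whole kidney replicate 3 (adjusted p = 0.0632). Slc9a3r2, encoding NHERF2, was at 9.37 ± 2.14 TPM in the tubules, against 63.7 ± 1.42 TPM in whole kidney (log2 difference -2.67 ± 0.18 SE, limma adjusted p = 3.71e-09). Slc9a3, the sodium-proton exchanger that NHERF proteins bind, was at 7.84 ± 3.65 and 27.4 ± 3.33 TPM (log2 difference -1.78 ± 0.36 SE, limma adjusted p = 0.000729). Pdzk1ip1, a small membrane protein that binds PDZK1, and Ezr, which ties NHERF proteins to actin, were also lower, at 46.5% and 72.5% of whole kidney, and for Ezr the call was lost with median-of-ratios rescaling (adjusted p = 0.0818). NHERF2 and ezrin are also made by podocytes and endothelium, whose markers fell in the tubules. Their part in these differences was not tested.

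Genes of the hormone axis were read next. The hormones Fgf23 and Pth were at 0 in all 3 whole kidney libraries and at most 0.05 and 0.27 TPM in a tubule, and Klb and Pth2r were at most 0.07 TPM in any library. Cyp27b1, which makes active vitamin D, was at 0.141 ± 0.131 TPM in the tubules, against 7.09 ± 3.6 TPM in whole kidney (log2 difference -2.73 ± 0.23 SE, limma adjusted p = 3.77e-08), and it too entered the test only through its whole kidney level. Cyp24a1, which breaks it down, was at 4.66 ± 6.87 and 79.7 ± 14.3 TPM (log2 difference -4.41 ± 0.69 SE, limma adjusted p = 6.02e-05). The vitamin D receptor Vdr was closer, at 117 ± 16 and 146 ± 7.48 TPM (log2 difference -0.33 ± 0.13 SE, limma adjusted p = 0.0402). That call was lost without any 1 of the whole kidney libraries (adjusted p up to 0.13) and with median-of-ratios rescaling (-0.039, adjusted p = 0.77).

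Downstream of the receptors, Gnas, which couples PTH1R to cAMP, was at 454 ± 30.4 TPM in the tubules, against 480 ± 2.32 TPM, and did not pass (limma adjusted p = 0.333). Its sign followed the scaling, at 0.21 with median-of-ratios rescaling and -0.19 with quantile normalization. Prkaca and Prkacb, the catalytic subunits of protein kinase A, did not pass either, at 87.7% and 86.7% of whole kidney. The regulatory subunit Prkar1a was lower, at 98.5 ± 6.79 against 156 ± 2.92 TPM, as were the adenylyl cyclase Adcy6 at 18.9% and Gnaq at 60% of whole kidney, although Gnaq was at 0.094 on the log2 scale with quantile normalization (adjusted p = 0.554). On the FGF side, Dusp6, a target of ERK signalling, was at 17.7 ± 4.74 against 36.7 ± 8.03 TPM (log2 difference -1.03 ± 0.23 SE, limma adjusted p = 0.00145), and the adaptor Frs2, at 53.8% of whole kidney, was lower as deposited but did not pass under either other scaling (adjusted p = 0.0575 and 0.798). Fgf1, a growth factor, was higher, at 204 ± 52.8 against 114 ± 10.6 TPM (log2 difference 0.80 ± 0.23 SE, limma adjusted p = 0.00846).

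The 3 sets of tubules were then compared with each other, where 9 members were tested because Slc34a3 had a mean under 1 TPM. Only Slc20a1 passed (limma F test, adjusted p = 0.0204), where 3.02% of 11300 genes passed. It was at 19.7, 15.5, 14.7 and 14.4 TPM in m1, at 10.9, 13.6, 8.09 and 9.26 TPM in m2 and at 19.4, 18.9, 16.3 and 19.1 TPM in m3. Each m2 library was below each library of the other sets, and m1 and m3 overlapped. The share of all genes with a set apart in this way was not counted, so the separation is descriptive only. The difference of m3 from m2 was 0.78 ± 0.15 on the log2 scale (SE, limma adjusted p = 0.0143), where 1.97% of all genes passed and 1.17% passed as higher in m3, and that of m2 from m1 was -0.59 ± 0.15 and did not pass (SE, limma adjusted p = 0.121). No member passed between m2 and m1, where 0.54% of all genes did, 0.301% higher and 0.239% lower. With the library number as a block, treated in the closing section, 2 members passed among the sets, where 888 of 11300 genes did. Between m2 and m1, 1 member then passed, where 307 genes did.

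The Slc20a1 call rested on few libraries. The F test no longer passed without m2 replicate 3 (adjusted p = 0.0631), m2 replicate 4 (0.0725), m3 replicate 1 (0.0615) or m3 replicate 2 (0.0529), or without a filter on low values (0.0691). The difference of m3 from m2 no longer passed without m2 replicate 4 (adjusted p = 0.0545), m3 replicate 1 (0.053) or a filter (0.0527). Its relative Slc20a2 had set means of 29.6 ± 5.87, 35.8 ± 3.98 and 39.8 ± 5.29 TPM (SD, n = 4 each) and did not pass (limma F test, adjusted p = 0.223), but it did so without m1 replicate 1 (0.0435). Among the pathway genes, 1 of 30 tested passed, where 3.02% of all genes did, the cAMP phosphodiesterase Pde4d, whose means from m1 to m3 were 23.7 ± 3.09, 20.6 ± 1.52 and 16.1 ± 1.26 TPM (SD over 4 libraries; limma F test, adjusted p = 0.0359). The call was lost on leaving out any single tubule except m1 replicate 1 (adjusted p up to 0.133). Pde4d was lower in m3 than in m1, by -0.52 ± 0.11 on the log2 scale (SE, limma adjusted p = 0.0176), and this call was lost without m1 replicate 4, m3 replicate 1 or m3 replicate 2 (adjusted p = 0.0564, 0.071 and 0.0503). No member passed between m3 and m1, where 3.17% of all genes did, 2.23% higher and 0.938% lower. With the library number as a block 1 member passed there, where 838 of 11300 genes did. Without the block, the share of calls for m3 against m1 that were higher in m3 was 70.4% as deposited and 54.5% with median-of-ratios rescaling.

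Slc34a1 varied with the library number. In each set the library numbered 4 was the highest, at 4881, 4487 and 5082 TPM, and the other 9 tubules were between 2336 and 3539 TPM. Only number 4 was thus apart. Numbers 1, 2 and 3 overlapped each other, at 2397 to 3409, 2336 to 3325 and 2561 to 3539 TPM. The mean of the libraries numbered 4 was 4817 ± 303 TPM (SD, n = 3) and that of the others 2862 ± 487 TPM (SD, n = 9), a log2 difference of 0.77 ± 0.11 (SE). All libraries numbered 4 lay above the other tubules for 1.54% of 11300 genes, and among the 9 members tested for Slc34a1 alone. They lay below the others for 1.53% of genes and for no member. An F test over the number, with the set as a term, asked for any difference among the numbers, not for number 4 against the others. Slc34a1 was the only member that passed (limma F test, adjusted p = 0.0142), where 2.71% of all genes passed. The call was lost without m2 replicate 4 (adjusted p = 0.0566), without m3 replicate 4 (0.0562), without the set term (0.155) and without a filter on low values (0.17).

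Kl ran in the same direction but not as far. Its libraries numbered 4 were at 189, 184 and 221 TPM, above all other tubules except m1 replicate 1 at 196 TPM, and the F test did not pass (limma adjusted p = 0.0809). With genes of at least 10 TPM only, it passed (adjusted p = 0.0419). For Pth1r, Pdzk1 and Slc9a3r1 the libraries numbered 4 differed from the others by 0.042 ± 0.082, -0.040 ± 0.079 and -0.045 ± 0.073 on the log2 scale (SE), less than for Slc34a1. The ratio of Pdzk1 to Slc34a1 TPM was 0.286 ± 0.0145 (SD, n = 3) in the libraries numbered 4 and 0.508 ± 0.0994 (SD, n = 9) in the others.

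Among the pathway genes, 3 of 30 passed by number, where 2.71% of all genes did. This F test asks for any difference among the numbers. Its p-values therefore do not test the libraries numbered 4 against the others, whose means are given beside them. Galnt3, whose enzyme protects FGF23 from cleavage, was at 45.7 ± 4.05 TPM in the libraries numbered 4 (SD, n = 3) and 31.2 ± 5.6 TPM in the others (SD, n = 9; limma F test, adjusted p = 0.0436), a call lost on leaving out any single tubule except m2 replicate 2 (adjusted p up to 0.146). Slc9a3 was at 12.3 ± 3.3 and 6.34 ± 2.36 TPM (limma F test, adjusted p = 0.017), lost without m1 replicate 4, m2 replicate 1, m3 replicate 2 or m3 replicate 4 (adjusted p up to 0.0779), and Fgf1 was at 156 ± 30.1 and 220 ± 49.7 TPM (limma F test, adjusted p = 0.0116). All 3 calls were lost without the set term and without a filter on low values. Some markers of segments moved with the number as well. The S2 marker sum was 892 to 1149 TPM in the libraries numbered 4 and 368 to 762 TPM in the others. The S1 marker sum, nearly all Slc2a2, was 60.5 to 79.9 TPM and 36.3 to 52.8 TPM. Of its genes only Slc2a2 was higher, at 69.7 ± 8.99 and 42.4 ± 6.34 TPM. Slc5a2, at 0.61 ± 0.695 and 0.727 ± 0.412 TPM, and Slc5a12, at 0.06 ± 0.0265 and 0.117 ± 0.076 TPM, were near 0 and not higher. The S3 marker sum overlapped, at 2034 to 3016 TPM and 2463 to 3853 TPM. Of its 4 genes, Cyp7b1 was at 207 ± 95.6 and 582 ± 151 TPM, Slc7a13 at 1647 ± 248 and 1856 ± 217 TPM, Slc5a8 at 158 ± 47.2 and 176 ± 40.7 TPM, and Atp11a at 549 ± 143 and 560 ± 119 TPM. The part of segment makeup in the Slc34a1 pattern was not tested.

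**Figure D4:**
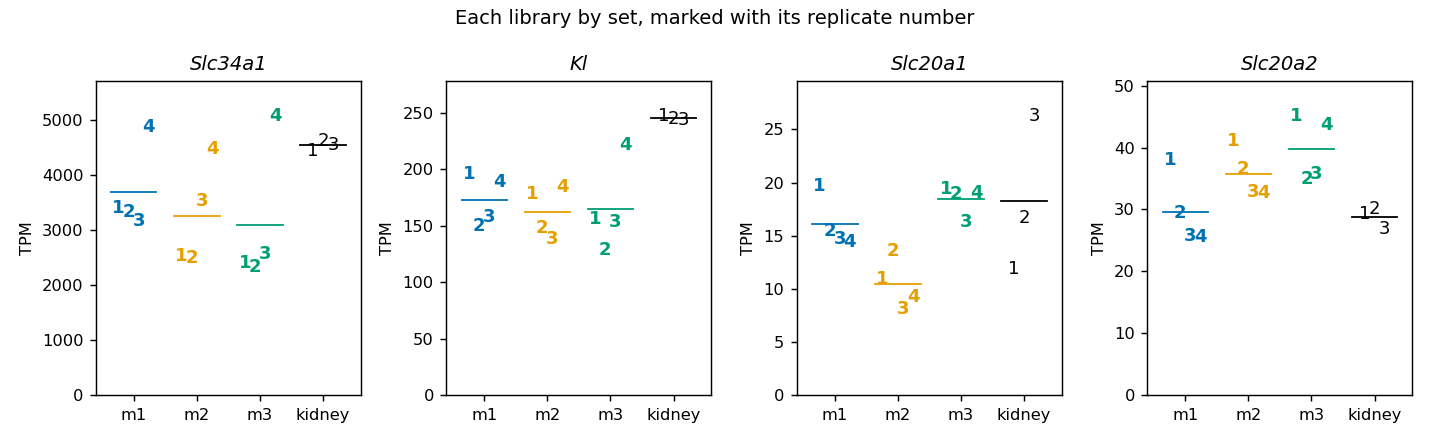
TPM of Slc34a1, Kl, Slc20a1 and Slc20a2 in each library, on linear axes from 0, by PTS2 set and whole kidney; each digit is a library drawn as its replicate number, and lines are group means. For Slc34a1 the digit 4 is the highest of each set, at 4487 to 5082 TPM, and for Slc20a1 set m2 lies lowest, at 8.09 to 13.6 TPM.

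The genes whose levels were most like Slc34a1 over the 12 tubules were sought among 6446 genes whose mean level reached 10 TPM. They were Igfbp4, which binds insulin-like growth factors, Fam134b, a receptor for turnover of the endoplasmic reticulum, and Fam151a, each with a Pearson r of 0.97 on the log2 scale. These points share their sets and numbers, and Igfbp4 was likewise at 536 TPM in the libraries numbered 4 and 300 TPM in the others. For Slc34a3 the 3 most similar genes were Emc9 (r = 0.88), Capns1 (0.87) and Ssbp1 (0.80), but its values in the tubules were so near 0 that this likeness says little.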

How the data were processed

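RNA-Seq was measured in 12 libraries of single microdissected PTS2 tubules and 3 of whole kidney. Per the labels' protocols, cDNA was made with the SMART-Seq V4 kit for very low input. The authors deposited TPM values by gene and library in a single table. STAR 2.5.1b, RSEM 1.2.31 and the GRCm38.p5 genome are named, without roles, per the submitters' processing notes. Column sums were 999999 to 1000001, so the depth is unknown and tests on counts could not be used. The file also holds 4 columns of means and standard errors, which were left aside, and no pair of libraries held identical values. Of the gene IDs, 46488 (98.8%) matched GENCODE M21.

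Linear models were fitted in limma 3.58.1 (R 4.3.3), with the prior variance following the mean (eBayes, trend), to log2(TPM + 1), a pseudocount of 1. Genes entered where their mean over the libraries fitted reached 1 TPM. P-values were two-sided, with Benjamini-Hochberg adjustment over all genes tested and a threshold of 0.05. For PTS2 against whole kidney the group (each set, or whole kidney) was a correlated block (correlation 0.0957). The 12 tubules were fitted by set, and by library number with the set as a term. The fits were also run on simulated data, and no outcome of those runs is reported here. Tables and figures were made with Python 3.11.15, pandas 2.3.3, numpy 2.4.6 and matplotlib 3.10.9.

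The members, gene lists and tests were chosen with earlier results of these data known. Named genes were the members, listed pathway genes and the 3 genes most like each SLC34 member. The difference of libraries numbered 4 from the others was computed after the data were seen. Alternatives were other pseudocounts, filters and scalings, mitochondrial genes left out, other block terms, and each library left out.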

Additional observations from a re-analysis of the deposited data

Results flagged for a closer look

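For each member and each set of 4 tubules, a library was singled out where its distance from the next value took up most of the spread of the set, above the 95% critical value of Dixon's test. Of 30 such comparisons 3 stood out, and chance alone gives about 1 in 20. Slc34a1 was at 4881 TPM (4881.4) in m1 replicate 4, where the next library was at 3409 TPM, and at 5082 TPM (5082.42) in m3 replicate 4, where the next was at 2561 TPM. Both belong to the difference by library number described above. Slc20a1 was at 16.29 TPM in m3 replicate 3, the lowest of its set, where the next was at 18.92 TPM. That library is also the one with 1441 TPM of thick ascending limb markers, and the part of those cells in its Slc20a1 value was not tested.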

How the results depend on the processing

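Values under alternatives were compared with the main fit by side of the threshold and, for log2 differences, by sign. The F tests among the sets and by library number have no sign, so only their side of the threshold was compared. Of 609 values of single members under alternatives, 581 kept what was compared, 12 passed newly, 13 no longer passed and 3 turned their sign. Those 3 were Slc20a1 between PTS2 and whole kidney, at 0.027 with median-of-ratios rescaling, 0.21 with quantile normalization and 0.038 without whole kidney replicate 3 (-0.51 to 0.038 with single libraries left out). Of 637 values of pathway genes that passed, 561 kept what was compared, 75 no longer passed and 1 turned its sign, Gnaq at 0.094 with quantile normalization (-0.65 to -0.58 with single libraries left out). The 5 members called between PTS2 and whole kidney became 8 with quantile normalization, 7 with median-of-ratios rescaling, 6 on set means and 6 without m3 replicate 4. Among the sets, the 1 member called became 0 without a filter on low values, as it did for m3 against m2. The 0 called for m2 against m1 became 1 with median-of-ratios rescaling and 1 with quantile normalization. By library number, the 1 called became 0 without the filter, 0 without the set term and 2 with genes of 10 TPM or more only. With single libraries left out, the counts were 5 to 6 between PTS2 and whole kidney, 0 to 2 among the sets, 0 to 0 for m2 against m1, 0 to 1 for m3 against m1 and for m3 against m2, and 0 to 1 by number. With single libraries left out, the mean share of Slc34a1 was 98.3% to 98.5% in PTS2 and 97.4% to 97.7% in whole kidney. That of Slc34a3 was 0.0076% to 0.0106% in PTS2 and 1.37% to 1.53% in whole kidney. The causes were not tested.

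The library number was also used as a replicate block. Values were first centred within each set, which ties the mean r of other pairs to that of same-numbered pairs. Same-numbered tubules of different sets correlated above 0.1 in 7 of 12 pairs (mean r 0.143), against 2 of 36 other pairs (mean r -0.0481). Since not all same-numbered pairs did, the numbers were not taken to pair the samples, and the set tests above ignore them. For number 4 all 3 pairs were above 0.1 (r 0.2 to 0.232), as were all 3 for number 1 (0.157 to 0.273). Of the 12 tubules, 9 correlated best with their own number, a hint from the data only. With the block, 2 members passed among the sets, 1 for m2 against m1 and 1 for m3 against m1, and 6 between PTS2 and whole kidney, Slc34a1 included (-0.68, limma adjusted p = 0.00135). Over all genes the block moved the calls among the sets from 341 to 888, from 61 to 307 for m2 against m1, from 358 to 838 for m3 against m1 and from 223 to 416 for m3 against m2.

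Counts over all genes depended on the filter. Between PTS2 and whole kidney 5645 genes passed, 9582 without a filter and 2725 among genes of 10 TPM or more. Without a filter 196 passed among the sets, 178 for m3 against m1 and 111 for m3 against m2. By number 306 passed, 0 without a filter and 0 without the set term. For m2 against m1, 105 passed with median-of-ratios rescaling and 107 with quantile normalization. With single libraries left out the counts were 197 to 563 among the sets, 37 to 135 for m2 against m1, 160 to 771 for m3 against m1, 119 to 313 for m3 against m2 and 75 to 507 by number. With each whole kidney library as its own block, chosen after seeing the data, 6161 genes and the count of 5 members passed.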
